A study of Solanum lycopersicum with 6 samples.

Results

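The calcium sensors of tomato (Solanum lycopersicum) fruit were examined in 3 libraries from an SlLBD40 knockout line (KO) and 3 from wild type (WT), by RNA-seq. Members were taken by the table's gene descriptions: calmodulin, EF-hand, calcium-binding, calcineurin B, calcium-dependent protein kinase or CBL-interacting, leaving out calmodulin-binding proteins. This gave 145 genes of the 40229 in the table. One of them, the EF-hand gene Solyc07g062700, was selected on its measured KO and WT levels, which were known to differ, so its values are a description without a test. All libraries are fruit at 25 days after anthesis, per the labels; the wild type is the dwarf cultivar Micro-Tom. The KO label gives the edited gene, with no edit, number of lines or pooling of plants. Biological replicates are stated without saying whether they were separate plants, so a p-value covers only how far these libraries differ.

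Plant cells answer touch, wounding, cold, hormones and pathogens with brief rises of free calcium in the cytosol. Proteins with EF-hands, a helix-loop-helix that holds a calcium ion, read these rises. Calmodulin and the calmodulin-like proteins change shape on binding calcium and switch other proteins on or off. Calcineurin B-like proteins (CBLs) do so through partner kinases, and calcium-dependent protein kinases (CDPKs) carry sensor and kinase in one chain.

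Levels are the authors' deposited values, treated as TPM, a scale that corrects transcript abundance for length and for the library's total. TPM keeps no sequencing depth, so depth is unknown. The labels give no identifier for SlLBD40. The gene taken for it from knowledge of the study, Solyc02g085910, stood at 0.77, 2.51 and 3.85 TPM in KO and at 1.57, 5.35 and 1.90 TPM in WT. These groups overlap, so its transcript does not check the labels. The fruit MADS-box gene TAGL1 stood between 164 and 175 TPM in KO and between 172 and 241 TPM in WT. Seed storage transcripts set 1 library of each genotype apart. The 2S albumin gene Solyc08g080490 stood at 1675, 37.0 and 0 TPM in KO 1 to 3 and at 2171, 0.18 and 0 TPM in WT 1 to 3. Transcripts of the ripening regulators RIN and NOR were higher in every KO library than in any WT library. RIN stood at 27.3, 20.85 and 112.7 TPM in KO and at 1.53, 19.7 and 8.14 TPM in WT. NOR stood at 80.4, 54.0 and 402 TPM in KO and at 3.29, 28.9 and 28.95 TPM in WT. ACO1, an ethylene synthesis gene, had a lower mean in KO, at 301, 403 and 751 TPM in KO and at 672, 1317 and 2236 TPM in WT, and KO 3 overlapped WT 1. Of the 7 fruit marker genes read, 4 had a higher and 3 a lower mean in KO. Chlorophyll a-b binding transcripts, markers of green tissue, summed to 1133, 1166 and 2190.1 TPM in KO and to 2891, 567 and 749 TPM in WT. The part of ripening, green tissue or seed transcripts in the differences described here was not tested. Library numbers are those of the table's columns. The sequencing lane, where the labels name one, and the prefix of the sample titles differ between the genotypes and cannot be told apart from genotype in any comparison.

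Transcripts of the calcium sensors summed to 3714, 4676 and 6887 TPM in KO 1 to 3 and to 5075, 7565 and 5485 TPM in WT 1 to 3, and the genotypes overlapped. Of the 145 members, 23 were listed at 0 in all 6 libraries and 56 reached 5 TPM in every library. Members described as calmodulin took the largest share of the summed level in each library. They made up 37.5%, 40.4% and 26.0% of it in KO, against 53.7%, 55.7% and 50.3% in WT, without overlap. CDPKs held the next share in 5 of the 6 libraries, KO 3 excepted, with 19.1% to 24.8% in KO and 16.1% to 19.0% in WT. The calcium-binding group holds members described as calcium-binding that matched no other group, genes such as PBP1 and CML38 among them. It held 25.8% in KO 3, but 7.22% and 9.19% in KO 1 and KO 2 and 6.29% to 8.59% in WT.

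**Figure D1:**
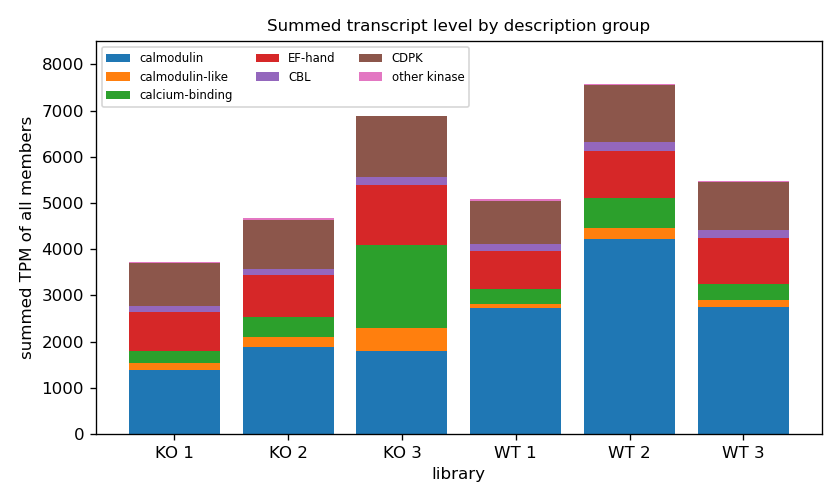
Summed TPM of all 145 members in each library, stacked by description group, KO at the left and WT at the right. The calmodulin block is between 1392 and 1889.6 TPM high in KO and between 2725 and 4215 TPM in WT, and the calcium-binding block reaches 1778 TPM in KO 3.

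The comparison of the genotypes asked which of these transcripts differ between KO and WT fruit. Genes reaching 1 TPM in 3 or more of the libraries were tested by limma on log2(TPM + 1), with p-values adjusted over all 18368 genes tested, and called at an adjusted p under 0.05. The members in this test numbered 92, and 53 were too low. The only member called was Solyc07g062700, lower in KO, whose choice rested on this contrast. It was not called when any library other than KO 3 was left out, with median-ratio scaling or with no filter. Over all genes, 0.0926% were called, 0.0490% lower and 0.0436% higher. At an unadjusted p under 0.05, 15 members stood lower and 2 higher in KO. That is 16.3% and 2.17% of the members tested, beside 11.3% and 6.24% of all genes. The genotypes did not overlap in 20 members lower in KO and 2 higher, or 21.7% and 2.17%, beside 16.1% and 8.26% of all genes. Both lower counts include Solyc07g062700, whose direction is fixed by its choice. Without it, 14 of 91 members (15.4%) stood lower at an unadjusted p under 0.05. The genotypes then did not overlap in 19 members lower in KO (20.9%). In 57.6% of members the KO mean was lower, beside 56.5% of all genes. The median log2 fold change of the members tested was −0.16, beside −0.09 for all genes tested. Of the members, Solyc06g051970 and Solyc12g009630 were tested only because the genotype in which they are higher reached 1 TPM.

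**Figure D2:**
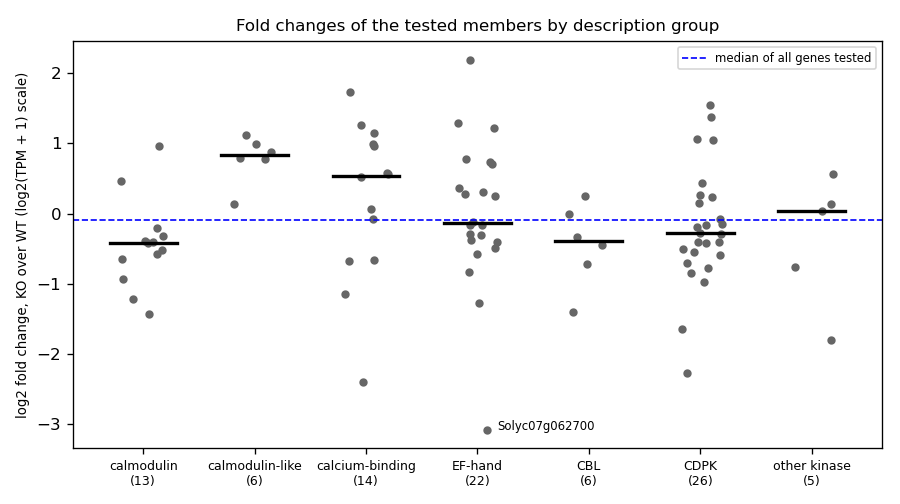
Log2 fold change, KO over WT, of each tested member by description group, with the number tested in brackets; black bars are group medians and the dashed line is the median of all genes tested. Solyc07g062700 is the lowest point at −3.08, the calmodulin median lies at −0.41 and the calmodulin-like median at 0.83.

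Solyc07g062700, described as a calcium-binding EF-hand family protein, was a major calcium sensor transcript in WT fruit and a minor one in KO fruit. By the naming of tomato gene models it lies on chromosome 7; the table gives no position. It stood at 16.6, 29.7 and 34.1 TPM in KO 1 to 3, against 233, 193 and 254 TPM in WT 1 to 3. Every KO library lay far below every WT library. The KO mean was 26.8 ± 9.08 TPM and the WT mean 226 ± 31.0 TPM (SD, n = 3 each), so the KO mean was 0.118 times the WT mean. The log2 fold change was −3.08 (SE 0.31). It ranked 39th of 145 members by KO mean and 4th by WT mean, and supplied between 0.448% and 0.634% of the summed level in KO and between 2.55% and 4.62% in WT. It was −2.76 without KO 1 and WT 1, the libraries with the most seed storage transcript, and the gene was not called there. With 1 library left out it lay between −3.28 and −2.78, and the gene was called only without KO 3; its direction is fixed by its choice. In bulk fruit, fewer cells that express it and less transcript per cell cannot be told apart.

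Its relatives by description differed less between the genotypes, or in the other direction. Solyc07g062700 was chosen on this contrast, so its larger difference is no result about the relatives. Of 32 members described as EF-hand, 22 were tested, and without Solyc07g062700 the median log2 fold change of the other 21 was −0.11, with 10 higher and 11 lower in KO. The 11 lower are 52.4%, beside 56.5% of all genes. Values ranged from −1.28 to 2.19, and 0 of the 21 were called by limma. An unadjusted p under 0.05 was reached by 1 higher and 1 lower, or 4.76% each, beside 6.24% and 11.3% of all genes. The nearest in size on the low side was Solyc01g097350. It stood at 50.9, 62.1 and 23.7 TPM in KO and at 114, 109 and 90.3 TPM in WT. The groups do not overlap, with a log2 fold change of −1.28 (SE 0.37, limma adjusted p = 0.151). In the opposite direction, Solyc01g081190 stood at 146, 119 and 123 TPM in KO and at 26.3, 114 and 47.0 TPM in WT. Here WT 2 came close to the KO libraries and the log2 fold change was 1.28 (SE 0.49, limma adjusted p = 0.241).

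The most abundant EF-hand member over the 6 libraries was Solyc01g111040, at 237, 123 and 258 TPM in KO and at 89.5, 167 and 115 TPM in WT. The groups overlap (log2 fold change 0.71, SE 0.37, limma adjusted p = 0.372). Of the remaining EF-hand members, 10 were too low to test and 6 of these were listed at 0 throughout.

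**Figure D3:**
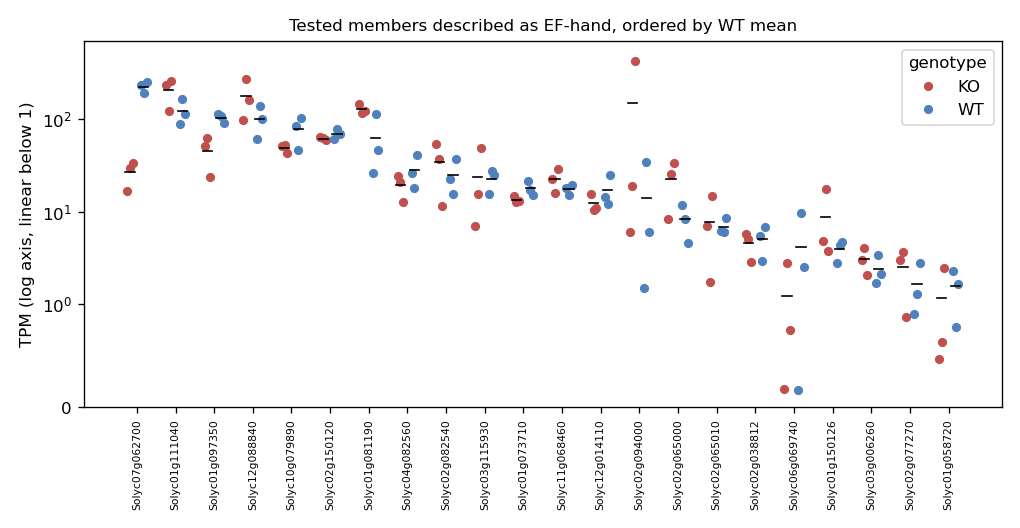
TPM of the 22 tested members described as EF-hand, in order of WT mean, on an axis that is logarithmic above 1 TPM; points are libraries (KO left, WT right of each position) and bars are means. Solyc07g062700, at the left, has KO points between 16.6 and 34.1 TPM and WT points between 193 and 254 TPM.

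Calmodulin is the most conserved calcium sensor, and tomato's numbered calmodulin genes encode very similar proteins. All 6 numbered calmodulins had a lower mean in KO, beside 56.5% of all genes, but 0 passed the test over all genes. Lower at an unadjusted p under 0.05 were 3 of the 6, beside 11.3% of all genes. The median log2 fold change of the 6 was −0.52, beside −0.09 for all genes tested. Together they summed to 1244, 1739.8 and 1606 TPM in KO 1 to 3, against 2530, 3995 and 2553 TPM in WT 1 to 3, without overlap. The lack of overlap rests on calmodulin 2, the largest part of each sum: without it, KO 3 stands above WT 3. Such sums depend less on how reads shared by close copies were divided than single genes do, and how the authors' counting divided them is not given in the sources used here.

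By mean TPM, calmodulin 2 (Solyc10g081170) was the most abundant calcium sensor transcript in either genotype. In KO 3 the PBP1 gene Solyc10g006700 stood higher, at 632 TPM. Calmodulin 2 stood at 553, 873 and 469 TPM in KO, against 1201, 2596 and 1444 TPM in WT. The groups are apart, but the WT libraries differ among themselves more than 2-fold. Its log2 fold change was −1.44 (SE 0.38, 95% interval −2.34 to −0.54, limma adjusted p = 0.137).

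Calmodulin 3 (Solyc10g077010) stood at 142, 172 and 248 TPM in KO and at 379, 357 and 312 TPM in WT. The groups are apart, with a log2 fold change of −0.93 (SE 0.26, limma adjusted p = 0.150). Calmodulin 4 (Solyc11g072240) stood at 101, 119 and 151 TPM in KO and at 234, 165 and 179 TPM in WT. Its groups are apart by a small margin, with KO 3 just below WT 2 (limma adjusted p = 0.248).

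Calmodulins 1, 5 and 6 overlapped between the genotypes, with log2 fold changes of −0.32, −0.41 and −0.39. Calmodulin 1 (Solyc01g008950) averaged 339 ± 41.0 TPM in KO and 427 ± 92.3 TPM in WT (SD, n = 3 each). In calmodulin 6 (Solyc03g098050) the highest value of all belonged to KO 3, at 248 TPM. Without KO 3 the median of the 6 was −0.76, and without the 2 seed-rich libraries it was −0.31. All 6 means stayed lower in KO under each setting tried, including median-ratio scaling (median −0.40), but some only just. The log2 fold change nearest 0 was −0.023 without the 2 seed-rich libraries and −0.073 without KO 1.

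Of the 10 other members in the calmodulin group, 2 are not sensors: a calmodulin-lysine N-methyltransferase, which modifies calmodulin, and a calmodulin-interacting protein. The methyltransferase gene Solyc03g033470 averaged 7.40 ± 1.18 TPM in KO and 11.5 ± 1.20 TPM in WT (SD, n = 3 each), without overlap. The calmodulin-interacting protein gene Solyc10g078320 stood at 2.66, 3.25 and 2.08 TPM in KO and at 5.07, 6.16 and 12.8 TPM in WT (log2 fold change −1.22, SE 0.39, limma adjusted p = 0.179). Over the 13 tested, 11 had a lower and 2 a higher mean in KO, or 84.6% lower beside 56.5% of all genes. The genotypes did not overlap in 7, all lower in KO, or 53.8% beside 16.1% of all genes.

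**Figure D4:**
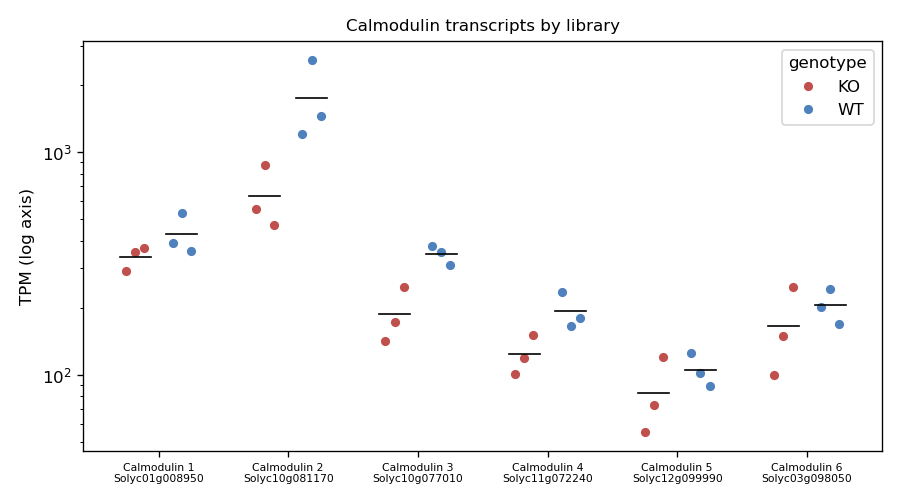
TPM of calmodulins 1 to 6 on a logarithmic axis; points are libraries (KO left, WT right of each position) and bars are means. The genotypes are apart for calmodulins 2, 3 and 4, and calmodulin 2 lies between 469 and 873 TPM in KO and between 1201 and 2596 TPM in WT.

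Members described as calmodulin-like stood on the other side, in a group set by wording. Genes described as calcium-binding protein CML38 or CML19 fell in the calcium-binding group. Of those, Solyc06g073830 had a log2 fold change of −2.39, Solyc02g090810 of −0.07 and Solyc11g071740 of 1.74. All 6 tested of the 11 described as calmodulin-like had a higher mean in KO, or 0% lower beside 56.5% of all genes. Their median log2 fold change was 0.83. By limma 0 were called, and 1 stood higher at an unadjusted p under 0.05, or 16.7% beside 6.24% of all genes. That one, Solyc12g009630 (calmodulin-like protein 5), was low, at 1.48, 1.87 and 1.66 TPM in KO and at 0.48, 0 and 0.23 TPM in WT, and was tested only through its KO values. The most abundant, Solyc04g018110, stood at 103, 142 and 380 TPM in KO and at 71.2, 169 and 91.7 TPM in WT. KO 3 is its highest library and WT 2 comes next, so the groups overlap (limma adjusted p = 0.508). Without KO 3 the median of the 6 genes was 0.49, still with all 6 higher in KO. With other libraries left out, Solyc03g044900 fell as low as −0.15. The count of 6 and both medians include Solyc12g009630, whose direction was fixed by the filter.

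One library, KO 3, carried much of the variation in the calcium-binding group. In the calmodulin-like group the SD of a gene over 3 libraries had a median of 0.47 within KO and 0.67 within WT, on the log2(TPM + 1) scale. In 12 of the 92 members tested, or 13.0%, KO 3 stood over 2-fold above every other library, beside 2.65% of all genes; these 12 were picked after their values were seen. For comparison, KO 3 stood below 0.5 times every other library in 5 members, or 5.43%, beside 6.17% of all genes. In all 12 the highest WT library was WT 2. They hold 3 of the genes described as PBP1, in Arabidopsis a calcium-binding partner of the PINOID kinase of auxin transport, and 1 of those described as CML38, a calmodulin-like protein which in Arabidopsis responds to wounding and low oxygen.

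The PBP1 gene Solyc10g006700 stood at 40.0, 63.4 and 632 TPM in KO and at 19.2, 157 and 47.6 TPM in WT. Its neighbour in the numbering, the PBP1 gene Solyc10g006660, stood at 19.7, 44.5 and 328 TPM in KO and at 13.6, 74.8 and 19.0 TPM in WT. Both follow the same order within each genotype, with KO 3 and WT 2 on top. The EF_hand_5 and EF_hand_6 domain gene Solyc02g094000 stood at 6.11, 18.9 and 425 TPM in KO and at 1.50, 34.7 and 6.10 TPM in WT.

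The CML38 gene Solyc11g071740 stood at 0.47, 4.39 and 38.4 TPM in KO and at 0.76, 3.79 and 0 TPM in WT. A different CML38 gene, Solyc06g073830, had the reverse direction, at 0, 0.83 and 1.21 TPM in KO and at 2.64, 7.32 and 18.4 TPM in WT. Its groups do not overlap (log2 fold change −2.39, SE 0.64, limma adjusted p = 0.136). The means of these 2 genes of the same description thus differed in direction. That of Solyc11g071740 rests largely on KO 3, and its groups overlap (log2 fold change 1.74, SE 1.17, limma adjusted p = 0.499). Without KO 3 its log2 fold change was 0.47.

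With all libraries the 12 genes had a median log2 fold change of 1.10 and all 12 a higher mean in KO. Without KO 3 the median was 0.28 and 9 were higher. For the 14 calcium-binding genes tested the median was 0.54 with KO 3 and −0.05 without it, and the number with a higher KO mean was 9 and 6. With KO 3, 35.7% of the 14 had a lower mean in KO, beside 56.5% of all genes. KO 3 is also the library with the highest RIN and NOR transcript levels given above, at 112.7 and 402 TPM, and of the KO libraries the one with the highest summed chlorophyll a-b binding transcripts, at 2190.1 TPM. Their part in these values was not tested. Within KO, the SD of a calcium-binding gene over the 3 libraries had a median of 1.31 on the log2(TPM + 1) scale, beside 0.40 over all genes tested, and within WT 0.72 beside 0.37.

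**Figure D5:**
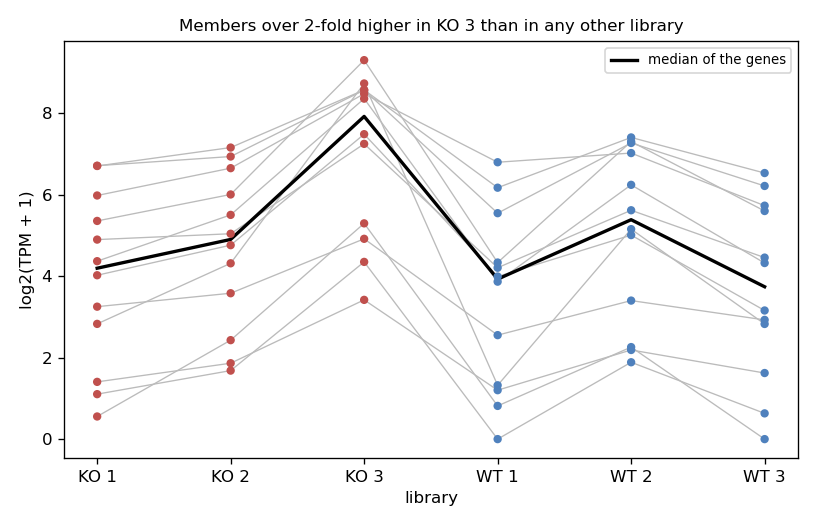
Log2(TPM + 1) of the 12 members in which KO 3 stood over 2-fold above every other library; grey lines join the values of 1 gene, coloured points are KO (red, left) and WT (blue, right), and the black line is the median of the genes. KO 3 is the highest library by the choice of genes, and WT 2 is the highest WT library in all 12.

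Of 13 described as calcineurin B, 6 were tested and 5 were listed at 0 throughout. A lower mean in KO was found in 5 of the 6 tested, or 83.3% beside 56.5% of all genes. The median log2 fold change of the 6 was −0.39. The 5 lower genes include Solyc06g051970, whose direction was fixed by the filter. Solyc08g077770 had closely grouped values, at 22.3, 22.2 and 22.9 TPM in KO and at 37.2, 39.6 and 36.4 TPM in WT. The groups are well apart on a small difference (log2 fold change −0.72, SE 0.21, 95% interval −1.21 to −0.24, limma adjusted p = 0.150). The most abundant CBL gene, Solyc12g015870, stood at 54.5, 55.5 and 60.1 TPM in KO and at 57.5, 51.6 and 62.6 TPM in WT. Its 95% interval for the log2 fold change was −0.49 to 0.46. Solyc06g051970 was low and uneven, at 0.51, 0.97 and 0.32 TPM in KO and at 1.88, 1.45 and 9.13 TPM in WT. Its groups are apart, WT 3 stands above the rest, and it was tested only through its WT values (log2 fold change −1.40, SE 0.56, limma adjusted p = 0.265). The single partner kinase in the set, Solyc12g009570, described as a calcineurin B-like interacting protein kinase, stood at 5.17, 5.86 and 3.47 TPM in KO and at 13.7, 6.96 and 6.78 TPM in WT, without overlap.

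Of 43 members described as CDPK, 26 were tested and 0 were called. Of the 26, 18 had a lower and 8 a higher mean in KO, or 69.2% lower beside 56.5% of all genes. By unadjusted p under 0.05, 4 were lower and 0 higher, or 15.4% lower beside 11.3% of all genes. The median log2 fold change was −0.28, and −0.10 without KO 3. Solyc04g081910 had the lowest value, at 25.1, 71.1 and 4.99 TPM in KO and at 90.7, 123 and 111 TPM in WT. The groups do not overlap but the KO libraries differ over 10-fold among themselves (log2 fold change −2.27, SE 0.81, limma adjusted p = 0.214). Solyc11g018610 stood at 2.34, 5.31 and 0.96 TPM in KO and at 8.28, 9.02 and 12.45 TPM in WT (log2 fold change −1.64, SE 0.46, limma adjusted p = 0.148).

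The most abundant CDPK gene was Solyc10g079755, at 184, 220 and 342 TPM in KO and at 126, 267 and 164 TPM in WT, with overlap. A pair with neighbouring numbers, Solyc12g005030 and Solyc12g005040, was high in 1 library only. They stood at 55.9 and 75.5 TPM in WT 1, while the other 5 libraries lay between 3.28 and 13.9 TPM. WT 1 is 1 of the seed-rich libraries and the WT library with the most chlorophyll a-b binding transcript, and the part of either in these values was not tested. Among the 8 other kinases, described mostly as calcium- and calmodulin-dependent, 5 were tested. Solyc01g068130 stood at 1.03, 2.25 and 0.61 TPM in KO and at 16.3, 3.01 and 5.38 TPM in WT (log2 fold change −1.79, SE 0.58, limma adjusted p = 0.183). Solyc03g006010, the most abundant, averaged 8.27 ± 7.73 TPM in KO and 6.33 ± 3.53 TPM in WT (SD, n = 3 each).

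The members most like Solyc07g062700 across the 6 libraries, by Pearson's r of log2(TPM + 1), were the CBL gene Solyc08g077770 (r = 0.97), calmodulin 3 (Solyc10g077010, r = 0.93) and the calmodulin methyltransferase gene Solyc03g033470 (r = 0.92). These points share 2 genotypes, and Solyc07g062700 was chosen on its KO and WT levels, so r largely repeats the gap between the genotypes. It does not show a shared order of libraries. Solyc07g062700 was highest in WT 3, calmodulin 3 in WT 1, and Solyc08g077770 and Solyc03g033470 in WT 2. Separate groups alone did not give a value this high, as in Solyc04g081910 (r = 0.68). In all, 13 of the other 91 members tested had an r above 0.8. The share of all genes above 0.8 was not computed, so this count is no result about the members. None of the 3 genes named first approached the size of difference of Solyc07g062700, with log2 fold changes of −0.72, −0.93 and −0.57.

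The other parts of calcium handling were read from lists of descriptions. In 6 lists 0 genes were called by limma over all genes. The 5 calcium-binding chaperones of the endoplasmic reticulum, calreticulins and calnexins, all had a lower mean in KO, or 100% beside 56.5% of all genes. Their median log2 fold change was −0.86. At an unadjusted p under 0.05, 2 stood lower, or 40.0% beside 11.3% of all genes. The calreticulin gene Solyc01g100380 stood at 255, 419 and 186 TPM in KO and at 437, 437 and 629 TPM in WT (limma adjusted p = 0.258). KO 3 was the lowest library for 4 of the 5, beside 39.9% of all genes.

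Annexins and C2 proteins, which bind membrane lipid in the presence of calcium, had 42 tested, 16 higher and 26 lower in KO. The 26 are 61.9%, beside 56.5% of all genes. At an unadjusted p under 0.05, 3 were higher and 10 lower, or 7.14% and 23.8%, beside 6.24% and 11.3% of all genes. Of the 42, 2 were tested only because the genotype in which they are higher reached 1 TPM. The direction of these 2 was fixed by the filter. Annexin 5 (Solyc01g097520) stood at 42.8, 121 and 38.3 TPM in KO and at 431, 148 and 385 TPM in WT (log2 fold change −2.30, SE 0.56, limma adjusted p = 0.119). Its groups are apart, with KO 2 and WT 2 the closest libraries.

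Calcium pumps and exchangers, which clear calcium from the cytosol, had 19 tested of 41. At an unadjusted p under 0.05, 3 stood lower and 0 higher, or 15.8% and 0%, beside 11.3% and 6.24% of all genes. The cation/calcium exchanger gene Solyc07g006370 averaged 23.2 ± 5.05 TPM in KO and 40.3 ± 7.30 TPM in WT (SD, n = 3 each). Channels had 36 tested of 53, with 2 higher and 2 lower by the same measure. That is 5.56% each, beside 6.24% and 11.3% of all genes. The glutamate receptor-like channel gene Solyc07g052400 averaged 4.22 ± 2.16 TPM in KO and 13.8 ± 5.57 TPM in WT. Calmodulin-binding targets had 24 tested of 52, with 0 in either direction by that measure and a median log2 fold change of −0.27; Solyc09g009770 had the lowest p of them (limma adjusted p = 0.287). All 7 NADPH oxidases, EF-hand enzymes that make superoxide, were too low to test.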

How the data were processed

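RNA-seq values came from 1 deposited table with 1 column per library. The header names no unit; columns sum to between 987932 and 994646, so the authors' deposited values were treated as TPM. Per the submitters' processing notes, Cufflinks, StringTie, HISAT2 and TopHat2 were used; their roles and versions, like the genome build, were not found in the labels or the file. Columns are numbered 1 to 3 within a genotype, unlike the sample titles, and were assigned to genotypes only. TPM keeps no depth, so no counting interval was computed, and an exact 0 can be a failed estimate.

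The genotypes were compared with limma 3.58.1 (R 4.3.3; trend option) using log2(TPM + 1). Benjamini-Hochberg adjustment ran over every gene that reached 1 TPM in 3 or more libraries. Fold changes on this scale understate those of low genes. It was tested on simulated data. Alternatives were median-ratio scaling, the robust option of limma, other filters, leaving out libraries, and 0.1 as pseudocount. Figures used matplotlib 3.10.9 in Python 3.11.15.

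Members, lists and the rule for named genes were chosen with earlier results of these data known. Named genes were Solyc07g062700; the most abundant and the lowest-p member of each description group; members with separate genotypes, at least 5 TPM in the higher one and a log2 fold change of at least 1; the 3 most like Solyc07g062700; and the lowest-p gene of each other calcium list. Others were named after their values were seen. Description groups took the first match of CDPK, other kinase, calcineurin B, calmodulin-like, calmodulin, EF-hand and calcium-binding. The seed list holds many lipid-transfer proteins by name. Of the table's identifiers, 0 matched the reference gene table, so no positions or sequences are given.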

Additional observations from a re-analysis of the deposited data

How the results depend on the processing

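With all 6 libraries limma called 17 genes, 1 of them a member, Solyc07g062700. Median-ratio scaling called 27 genes and 0 members; it shifted the all-gene median by 0.10 (log2) and left that of the members 0.06 below it. With no filter limma called 0 genes and 0 members, with 14 members lower and 2 higher at an unadjusted p under 0.05. Without both seed-rich libraries it called 0 genes and 0 members, with 6 lower and 2 higher. Leaving out 1 library gave between 0 and 23 genes and between 0 and 1 members; the member was called only without KO 3. The count was 0 genes without KO 1 or WT 3, 3 without WT 2, 9 without KO 2 and 11 without WT 1. The members' median log2 fold change, −0.16, lay between −0.23 and −0.10 with 1 library left out. It stood above that of all genes without KO 1 (−0.14 beside −0.17) and without both seed-rich libraries (−0.12 beside −0.22). A filter on a mean of 1 TPM, chosen after seeing the data, called 17 genes and 1 member.

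Among genes named by the rule, 3 that were not called changed sign. Solyc12g015870 was 0.11 under median-ratio scaling, between −0.081 and 0.055 with 1 library left out (above 0 without KO 1, KO 2 or WT 3) and 0.023 without both seed-rich libraries. With 1 library left out, Solyc03g006010 lay between −0.51 (without KO 2) and 0.58, below 0 also without WT 1 (−0.22). Solyc10g006700 lay between −0.065 (without KO 3) and 1.92. The cause was not tested. No paired analysis was possible because the columns carry no number that ties libraries across genotypes. Depth is unknown, so members at or near 0 cannot be told apart from absent ones.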
